A study of Mus musculus with 4 samples.

Results

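The ADAM, ADAMTS and ADAMTSL genes of the mouse were taken from an array experiment on aortic smooth muscle cells as every gene whose symbol in the deposited signal table is Adam, Adamts or Adamtsl followed by a digit. The rule found 57 of 27306 gene symbols, of which 33 are ADAM, 19 ADAMTS and 5 ADAMTSL genes, on 123 of 59305 rows, each row a probe. The study measured RNA on single-colour Agilent arrays in 2 cultures given PGE2 (prostaglandin E2) with a time of 24 h and in 2 control cultures left without treatment for 24 h. All 4 cultures were aortic vascular smooth muscle cells of the C57BL/6J strain with the genotype EP4-Tg, grown out of explanted aorta of adult mice. EP4 is a PGE2 receptor, and its signal through Gs increases cyclic AMP. The dose of PGE2, the promoter and form of the EP4 transgene, and whether the cultures came from separate animals are not given in the sources used here. P-values therefore measure the spread between these cultures, and since every culture carried the genotype, the comparison asks what differed with PGE2 in EP4-Tg cells.

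ADAM proteins are membrane-anchored metalloproteases that cut the extracellular part of growth factor precursors, cytokines, receptors and adhesion molecules off the cell surface, a step called shedding. Several ADAMs lack the zinc-binding site of the protease domain or act in sperm and egg. ADAMTS proteases are secreted relatives with thrombospondin repeats that cut proteoglycans such as versican and aggrecan, the N-propeptides of fibrillar collagens and other matrix proteins of the artery wall. ADAMTS-like proteins keep the repeats, carry no protease domain and bind the matrix, several of them at fibrillin microfibrils.

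Between 47.9% and 53.8% of the non-control spots of an array were well above background, by the scanner software's flag, and none was saturated. A probe was kept when this flag was set on both PGE2 arrays or on both control arrays, and each gene was read on the brightest of its kept probes, which left 17660 genes or unnamed probes to test. Of the smooth muscle markers, Acta2, Tagln, Cnn1, Myl9 and Smtn were well above background on all 4 arrays, while Myh11, Lmod1, Des and Myocd did not pass the filter. Summed over 9 markers, the smooth muscle signal was 156 to 243 on PGE2 arrays and 515 to 877 on control arrays, in units of each array's 75th percentile. Log2 changes were -2.10 ± 0.46 for Acta2, -1.79 ± 0.35 for Tagln, -2.26 ± 0.99 for Cnn1 and -1.61 ± 0.54 for Myl9, each without overlap. Their adjusted p was 0.152, 0.134, 0.338 and 0.258 (limma). Smtn stood at -0.33 ± 0.33 (adjusted p = 0.644), with overlapping groups. The macrophage markers Itgam, Ptprc, Csf1r and Cd68 were also well above background on all 4 arrays and Adgre1 and Lyz2 on none, with sums over 6 markers of 38.9 to 58.2 with PGE2 and 62.3 to 75.5 in control. Most of that sum is Itgam, and the macrophage markers had changes of both signs, at a log2 change of -0.61 ± 0.27 for Itgam, -0.36 ± 0.24 for Ptprc, 2.09 ± 0.36 for Cd68 and 0.98 ± 0.43 for Csf1r (adjusted p = 0.341, 0.4999, 0.109 and 0.338, limma), each without overlap of the groups. A second kept Csf1r probe differed by -0.42. Of 7 Ptprc probes and of 2 Itgam probes, 1 each was kept. A probe of 4 of 7 endothelial markers was above background on at least 1 array. Of the 7, Pecam1 was well above background on all 4 arrays, at -0.15 ± 0.20 (adjusted p = 0.721, limma) with overlapping groups. Cdh5, Kdr and Vwf did not pass the filter, and Tek, Tie1 and Emcn were above background on no array. Sums over the 7 were 0.193 to 0.294 with PGE2 and 0.246 to 0.479 in control. The fibroblast markers Pdgfra, Lum and Pi16 were measured on all 4 arrays and Dpt on none, with sums over 5 markers of 4.27 to 15.0 with PGE2 and 8.89 to 11.8 in control. They also had both signs, at 2.78 ± 0.43 for Pi16 and -2.17 ± 0.49 for Lum without overlap, and 0.60 ± 0.75 for Pdgfra with overlap (adjusted p = 0.0962, 0.159 and 0.712, limma). Cd34, the remaining fibroblast marker, did not pass the filter and split by replicate number. Its log2 signals, relative to each array's 75th percentile, were -4.17 on PGE2 1 and -4.80 on control 1. On PGE2 2 and control 2 they were 2.23 and 1.88. Sums over the T and B cell, the mesothelial and epithelial, and the Schwann markers overlapped between the groups, at 0.886 to 0.978, 11.1 to 12.1 and 0.151 to 0.163 with PGE2 and at 0.968 to 1.21, 10.7 to 15.3 and 0.149 to 0.263 in control. The part of these shifts in the results below was not tested, and less RNA of a gene per cell cannot be told apart from fewer cells that express it.

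Of the 57 genes, 27 passed the filter, on 48 of the 123 probes. Adam12, a sheddase of mesenchymal cells, fell with PGE2, and no other member passed an adjusted p of 0.05 (limma with Benjamini-Hochberg adjustment over all 17660 tested). Thus 1 member was called lower, where 0.272% of all tested genes were, and 0 were called higher, where 0.396% were. At an unadjusted p under 0.05 stood 3 higher members (Adamts4, Adamts7 and Adam10) and 6 lower ones (Adam12, Adamtsl5, Adamts17, Adam33, Adamts5 and Adam5), or 33.3% of the 27 against 17.8% of all tested genes, of which 7.31% were higher and 10.5% lower. The PGE2 and control arrays did not overlap in 16 of the 27, which is 59.3% against 52.2% of all tested genes, with 6 above and 10 below where 24% and 28.3% of all tested genes were. The median log2 change, PGE2 minus control, was -0.29 over the 27 members and -0.03 over all tested genes. Adam12, Adamts17, Adamts18 and Adamts9 met the filter in control only and Adam18 in PGE2 only. The first 3 of these were above background on no PGE2 array, so a difference in them was built into the choice, and these shares and medians over the members that passed are descriptions.

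**Figure D1:**
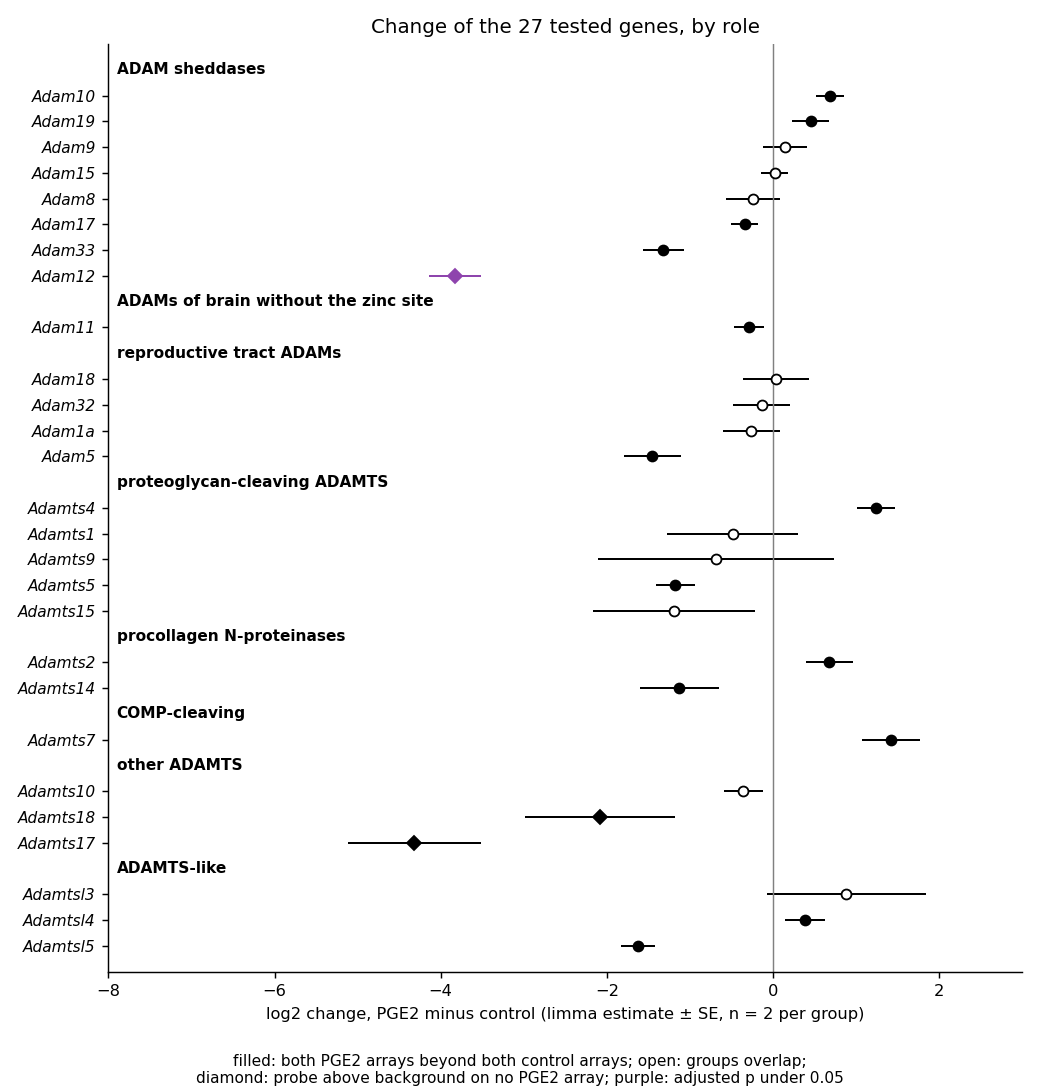
Log2 change with PGE2 relative to control (x axis, limma estimate with its SE as bar, 2 arrays per group) for the 27 tested members, grouped by role. Adam12 at -3.83 is the only member in purple, past an adjusted p of 0.05, and the members of most roles lie on both sides of 0.

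The sheddases are the group best represented, with 8 of 9 genes tested. On its kept probe, Adam12 had a log2 signal, relative to each array's 75th percentile, of -6.01 and -6.66 on PGE2 arrays against -2.72 and -2.29 on control arrays. The probe was well above background on both control arrays and on neither PGE2 array, so its fitted change of -3.83 ± 0.31 (SE, adjusted p = 0.0465, limma) has only a bound behind it, a signal at least 3.59-fold lower with PGE2. The bound sets the control mean over all its arrays against, on each PGE2 array, the dimmest signal well above background. That dimmest signal was -4.07 and -4.63 on the PGE2 arrays and -4.02 and -3.63 on the control arrays. This bound and those below hold on this scale only, with no correction for that difference between arrays. A second Adam12 probe to the same transcript, above background on PGE2 2 and control 2 only, had log2 signals of -4.33 and -3.98 with PGE2 against -3.92 and -3.35 in control, a difference of -0.52. Both PGE2 arrays were below both control arrays on it, by a difference that dark probes also showed: the 62 member probes below background on all 4 arrays had a median difference of -0.52. Without the filter, where the second probe represents Adam12, the call was lost (adjusted p = 0.462, limma). With normexp background correction and quantile normalization the Adam12 change was -1.12 (adjusted p = 0.0605), smaller than the bound, and the call was lost there too. It was also lost without control replicate 1 (adjusted p = 0.148) and without control replicate 2 (0.113), fits in which limma called no gene of the series, and with the replicate block (0.0555), a variance trend (0.0639) or the authors' scale (0.0737).

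Adam33, a sheddase of mesenchyme and airway smooth muscle, had relative log2 signals of -3.43 and -3.02 with PGE2 against -2.10 and -1.71 in control. Both PGE2 arrays were below both control arrays, at a log2 change of -1.32 ± 0.25 (adjusted p = 0.124, limma). A second kept Adam33 probe was above background in control only and was at least 3.17-fold lower with PGE2, at -6.16 and -5.41 against -3.07 and -2.30 in control. That direction was built into the choice, since the probe was kept on its control arrays alone. Adam10, which sheds Notch receptors, N-cadherin and the amyloid precursor, stood on the other side of 0, with 3.95 and 3.78 with PGE2 against 3.27 and 3.09 in control. The 2 Adam10 probes gave log2 changes of 0.69 ± 0.17 (adjusted p = 0.180, limma), on the probe tested, and 0.84. Adam17, the enzyme that releases TNF and many EGF receptor ligands, had 0.63 and 0.79 with PGE2 against 1.11 and 1.00 in control, a change of -0.34 ± 0.16 (adjusted p = 0.368) whose groups did not overlap. Its 3 kept probes differed by -0.55 to 0.06.

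The closely related meltrin genes besides Adam12 showed smaller values. Adam19 had relative log2 signals of -0.10 and 0.27 with PGE2 against -0.52 and -0.21 in control (0.45 ± 0.22, adjusted p = 0.384, limma), without overlap. Adam9 had 4.71 and 4.32 with PGE2 against 4.62 and 4.12 in control (0.14 ± 0.26, adjusted p = 0.809), and the groups overlapped. Adam15, a disintegrin protease of endothelium and smooth muscle, had relative log2 signals of 5.79 and 5.90 with PGE2 against 5.90 and 5.75 in control. Its 3 probes differed by -0.02 to 0.06, and the tested one by 0.02 ± 0.16 (adjusted p = 0.960). Adam8, best known from leukocytes, had -2.08 and -1.61 with PGE2 against -1.96 and -1.26 in control (-0.24 ± 0.33, adjusted p = 0.735), with overlapping groups. Adam28, a lymphocyte ADAM, stayed below background on all arrays with each of its 3 probes.

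**Figure D2:**
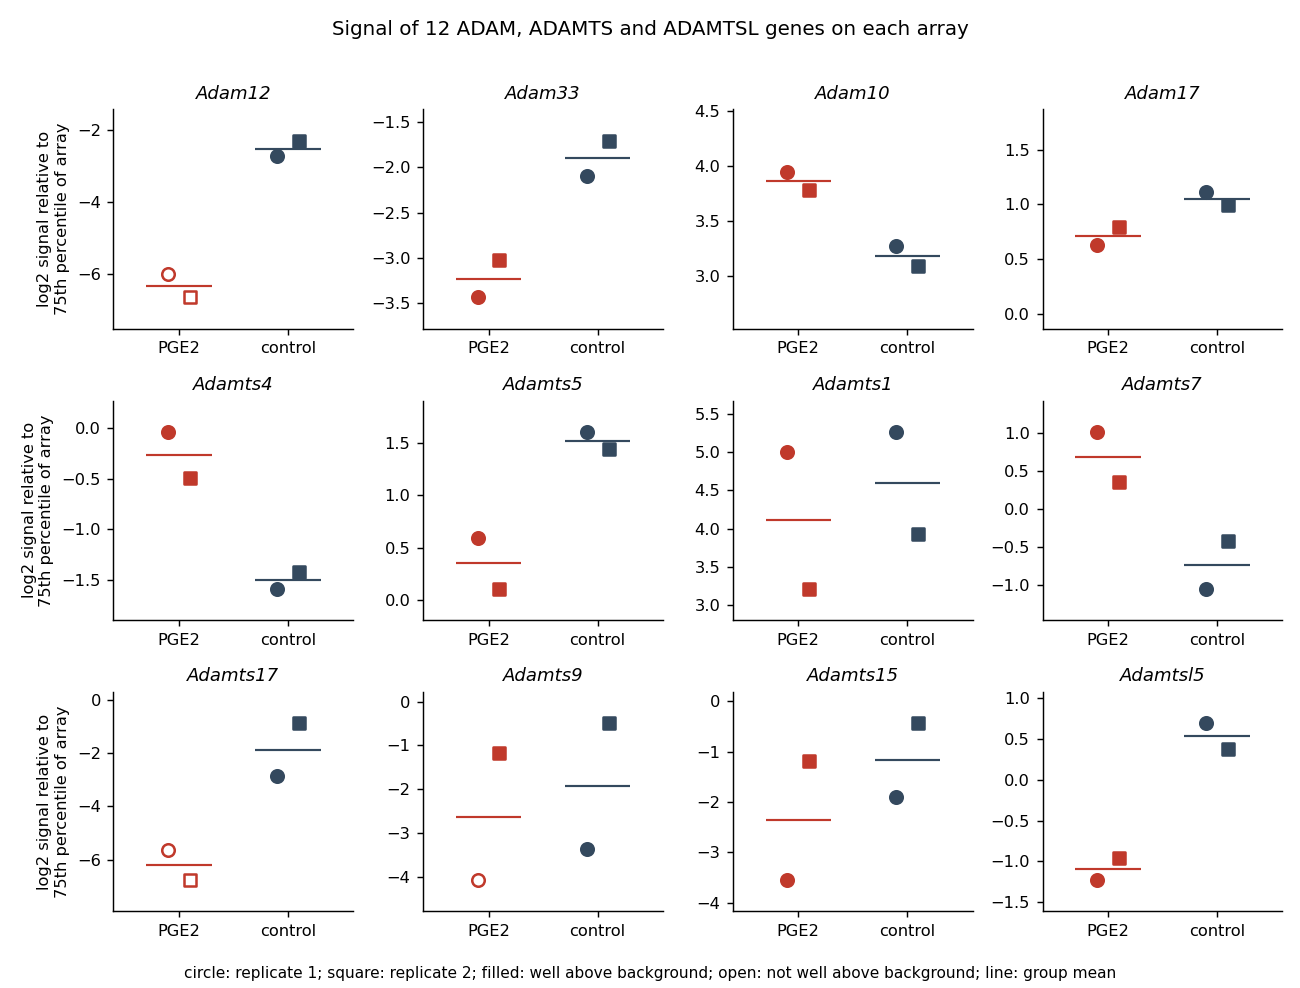
Relative log2 signal (y axis, log2 of the processed intensity minus the 75th percentile of the array, a scale of its own in each panel) of 12 members on each array, with PGE2 at the left and control at the right. The PGE2 points of Adam12 and Adamts17 are open, below background, those of Adamts4, Adamts7 and Adam10 lie above the control points, and in Adamts1, Adamts9 and Adamts15 the replicates lie farther apart than the group means.

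Among the proteases that cut versican and aggrecan, 5 of 7 genes were tested and 0 were called. Adamts4 and Adamts5, the main aggrecanases, had values on opposite sides of 0. Adamts4 had relative log2 signals of -0.04 and -0.49 with PGE2 against -1.59 and -1.42 in control. Both PGE2 arrays were above both control arrays, at a log2 change of 1.24 ± 0.22 (adjusted p = 0.118, limma). A second Adamts4 probe measured on all 4 arrays differed by 1.53. Its remaining kept probe, above background on both PGE2 arrays and no control array, has only a bound, at least 1.41-fold higher with PGE2. The direction of that probe was built into the choice. Adamts5 had 0.59 and 0.11 with PGE2 against 1.61 and 1.44 in control, and both PGE2 arrays were below both control arrays. Its change was -1.18 ± 0.23 (adjusted p = 0.134), with a second kept probe at -0.76. Over the 13 alternatives in processing, Adamts4 ranged from 0.91 to 1.50 and Adamts5 from -1.42 to -0.92, with an unadjusted p under 0.05 in each of them and an adjusted p no lower than 0.0937 and 0.0749.

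Adamts1, whose protease cuts versican and which lies next to Adamts5 on chromosome 16 in RefSeq's gene order, had relative log2 signals of 5.01 and 3.22 with PGE2 against 5.26 and 3.93 in control. The groups overlapped, and both arrays numbered 1 lay above both arrays numbered 2 (-0.48 ± 0.79, adjusted p = 0.780, limma). Adamts9, another versican protease, showed the reverse order, with -4.07 and -1.18 with PGE2 against -3.37 and -0.50 in control (-0.69 ± 1.42, adjusted p = 0.830), where PGE2 1 was not above background. Adamts15 had -3.55 and -1.18 with PGE2 against -1.89 and -0.44 in control (-1.20 ± 0.98, adjusted p = 0.575), again with both arrays numbered 2 above both numbered 1. Such a split by replicate number, in place of group, was seen in 8 of the 27 tested members (29.6%) and in 35.5% of all tested genes. A second kept Adamts9 probe was above background on both control arrays and no PGE2 array and differed by -1.53, at least 2.29-fold lower with PGE2. Its direction was built into the choice. Adamts20 was above background on PGE2 1 alone, at -1.80 on that array and -6.94 on PGE2 2 against -4.91 and -5.93 in control, and Adamts8 was not on any array.

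Of the enzymes that remove the N-propeptide of procollagen, Adamts2 had relative log2 signals of 6.19 and 5.95 with PGE2 against 5.73 and 5.07 in control, without overlap. Its change was 0.67 ± 0.28 (adjusted p = 0.326, limma), and its 3 kept probes ranged from 0.67 to 1.26. Adamts14 had -1.86 and -1.59 with PGE2 against -1.23 and 0.04 in control, on the other side of 0 at -1.13 ± 0.47 (adjusted p = 0.324, limma). A second kept Adamts14 probe, which met the filter in control only, gave -1.36. Adamts3 was not above background on any array. Adamts7, which cuts cartilage oligomeric matrix protein and is tied to coronary disease in human genetics, had 1.01 and 0.36 with PGE2 against -1.05 and -0.41 in control. Both PGE2 arrays were above both control arrays at 1.42 ± 0.35 (adjusted p = 0.176), on the single Adamts7 probe of the array. Its relative Adamts12 was not tested, with -6.24 and -4.16 with PGE2 against -6.20 and -4.55 in control on the probe with the highest signal, above background on PGE2 2 alone. Adamts13, the protease of von Willebrand factor, was not above background on either of its 2 probes.

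Of the other ADAMTS genes, Adamts17 had relative log2 signals of -5.63 and -6.75 with PGE2 against -2.86 and -0.89 in control. On the tested probe, to an Ensembl transcript, it was above background on the control arrays only. The bound there is at least 5.56-fold lower with PGE2 (fitted -4.32 ± 0.80, adjusted p = 0.123, limma). Its other 3 probes, to RefSeq transcripts, were not above background on any array, PGE2 or control. Adamts18 had -4.39 and -6.93 with PGE2 against -3.75 and -3.40 in control, a bound of at least 1.71-fold lower (fitted -2.08 ± 0.91, adjusted p = 0.336), with its other 3 probes also below background throughout. It passed the threshold without PGE2 replicate 1 (-3.36, adjusted p = 0.0476), an arm of 1 array that is then assumed to vary like the control. Adamts10, which like Adamts17 is linked to fibrillin microfibrils through human short-stature and lens disorders, had -0.13 and -0.41 with PGE2 against -0.13 and 0.31 in control (-0.36 ± 0.24, adjusted p = 0.490), with overlapping groups. Adamts6 was above background on PGE2 1 and control 1 only and was not tested, and Adamts16 and Adamts19 were not above background on any array.

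Among the ADAMTS-like genes, Adamtsl5, whose protein binds fibrillin, had relative log2 signals of -1.23 and -0.96 with PGE2 against 0.69 and 0.37 in control. Both PGE2 arrays were below both control arrays at -1.63 ± 0.21 (adjusted p = 0.0746, limma). A second kept Adamtsl5 probe, to a non-coding transcript and below background on control 2, had the opposite sign, at -3.52 and -3.40 with PGE2 against -3.60 and -4.37 in control. Averaged over both probes, the Adamtsl5 change was -0.55. Adamtsl4, also a fibrillin-binding protein, had 2.09 and 2.33 with PGE2 against 1.58 and 2.08 in control (0.38 ± 0.24, adjusted p = 0.482), with a narrow gap between the groups. Adamtsl3 had 0.13 and 0.79 with PGE2 against -1.74 and 0.91 in control (0.88 ± 0.96, adjusted p = 0.673), where control 1 stood apart and the groups overlapped. Adamtsl1 (punctin) was above background on 1 of 5 probes and on PGE2 2 alone, at -4.76 and -4.34 with PGE2 against -4.95 and -4.94 in control on that probe. Adamtsl2 was above background on PGE2 1 and control 1 only. Neither was tested.

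Upstream sequences are shown for Adam10 and Adamtsl5, the members at an unadjusted p under 0.05 that were measured on all 4 arrays and have a promoter entry in RefSeq's GRCm38.p6 table. On their tested probes they stand on opposite sides of 0, and neither was called. A second kept Adamtsl5 probe had the opposite sign, at 0.52. Cyclic AMP acts in many genes through CREB at a cyclic AMP response element, and a part of CREB in these changes was not tested. Each is the 250 bases before the annotated start, on the gene's strand, 5′ to 3′, with matches to the short form of that element, TGACG, on either strand in capitals. The Adam10 sequence is chr9:70678732-70678981 (+) and that of Adamtsl5 is chr10:80348449-80348698 (-), both in GRCm38.p6.
Adam10: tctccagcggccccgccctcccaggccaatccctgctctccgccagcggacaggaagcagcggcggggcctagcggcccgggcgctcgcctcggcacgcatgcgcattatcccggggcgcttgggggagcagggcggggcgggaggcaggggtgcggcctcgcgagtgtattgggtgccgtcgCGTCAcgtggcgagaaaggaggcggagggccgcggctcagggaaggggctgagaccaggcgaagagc
Adamtsl5: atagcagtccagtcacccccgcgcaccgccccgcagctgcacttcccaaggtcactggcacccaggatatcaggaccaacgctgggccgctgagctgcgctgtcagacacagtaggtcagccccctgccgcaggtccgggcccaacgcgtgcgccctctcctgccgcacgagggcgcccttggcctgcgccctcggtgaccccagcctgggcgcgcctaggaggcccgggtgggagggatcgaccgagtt
Adam10 holds 1 short form, on the opposite strand, and these 250 bases of Adamtsl5 hold none. The short form was found in 6 of the 33 promoter entries of 31 members (18.2%) and in 17.8% of all 32851 entries over the same length. The full palindrome TGACGTCA, which contains the short form on both strands, was in 0 of the 33 and in 1.55% of all entries. The AP-1 motif TGANTCA, searched on both strands, was in 4 of the 33 (12.1%) and in 6.75% of all entries, and in neither sequence shown. A match describes the letters of these windows and does not show binding.

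The ADAM genes of brain and the reproductive tract were mostly dark. Of 21 reproductive tract genes, 4 were tested and 15 stayed below background throughout (Adam1b, Adam2, Adam3, Adam4, Adam6a, Adam7, Adam20, Adam21, Adam24, Adam25, Adam26a, Adam29, Adam30, Adam34 and Adam39). Adam26b was above background on PGE2 2 alone and Adam6b on PGE2 1 alone. Adam5, a sperm ADAM, had relative log2 signals of -2.06 and -2.34 with PGE2 against -0.32 and -1.17 in control. Both PGE2 arrays were below both control arrays at -1.45 ± 0.34 (adjusted p = 0.164, limma), and a second probe, also measured on all 4 arrays, gave -1.03. Adam18 had -3.25 and -3.10 with PGE2 against -2.67 and -3.74 in control (0.03 ± 0.40, adjusted p = 0.974), and Adam32 had -2.48 and -1.93 with PGE2 against -2.42 and -1.72 in control (-0.14 ± 0.34, adjusted p = 0.860). In both the groups overlapped.

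Adam18, Adam3, Adam5, Adam32 and Adam9 follow each other as protein-coding genes on chromosome 8 in RefSeq's order, so of the 4 tested genes of this role Adam5 and Adam32 are neighbours, and Adam32 is next to Adam9. Adam18 is separated from Adam5 by Adam3, which stayed below background. Adam1a, a subunit gene of the sperm protein fertilin on chromosome 5, had -1.91 and -1.22 with PGE2 against -1.58 and -1.02 in control (-0.26 ± 0.34, adjusted p = 0.723), with overlapping groups. Its neighbour Adam1b was below background. Of the brain ADAMs without a zinc site, Adam11 had -0.45 and -0.71 with PGE2 against -0.22 and -0.37 in control (-0.29 ± 0.18, adjusted p = 0.475), without overlap. A second Adam11 probe to another transcript, measured on all 4 arrays, gave the opposite sign at 0.90. Adam23 was above background on control 1 alone and Adam22 on no array.

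**Figure D3:**
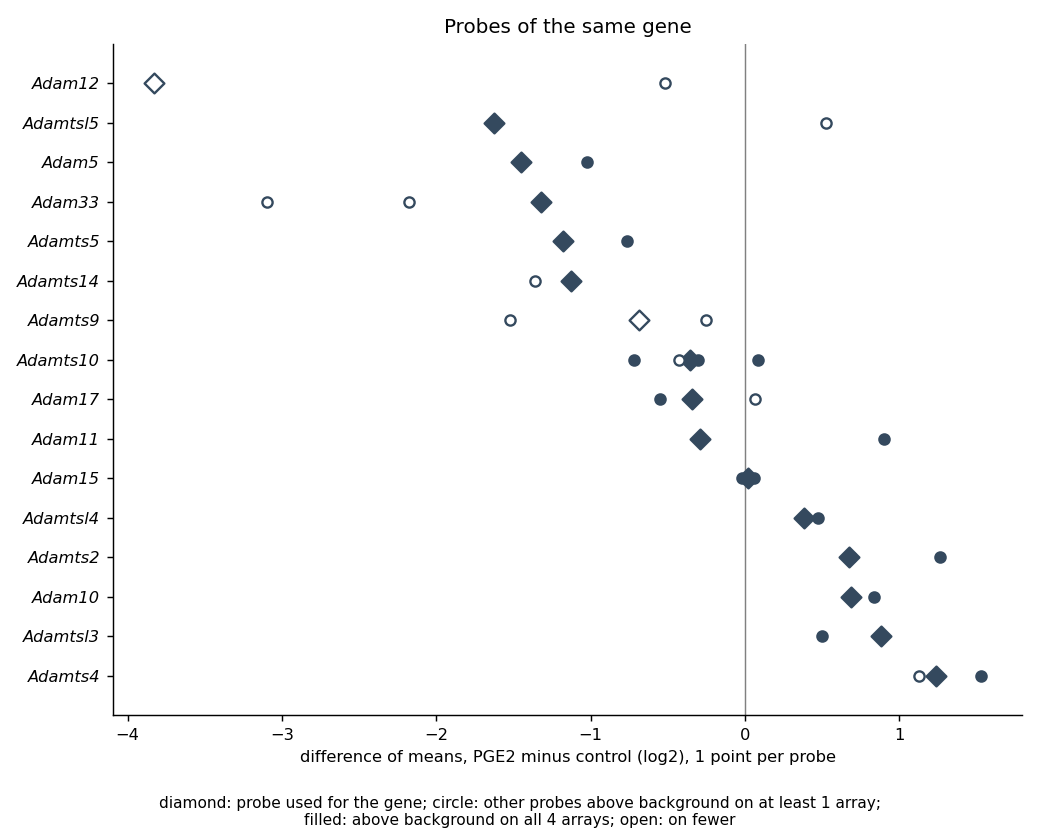
Difference of the group means (x axis, PGE2 minus control, log2) for each probe of the tested members with at least 2 probes above background on at least 1 array, 1 row per gene. The probes of Adamts4, Adam10, Adamts2, Adamts5 and Adam5 lie on 1 side of 0. Those of Adamtsl5, Adam11, Adam15, Adam17 and Adamts10 lie on both sides. A kept Adamts4 probe met the filter in PGE2 only.

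Of the 27 tested members, 15 had more than 1 kept probe and 12 had 1. The kept probes of 5 of the 15 (Adamtsl5, Adam11, Adam15, Adam17 and Adamts10) included both signs, and in Adam15 all values were close to 0. Adamts10 has 4 kept probes, which ranged from -0.72 to 0.08. The direction of these 5 genes therefore depended on the probe read. In Adam17 and Adamts10 the highest kept probe was close to 0, at 0.06 and 0.08.

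Other genes of the pathway were described from lists of inhibitors, partners and substrates. Of 4 tested inhibitor genes, 1 was called higher, where 0.396% of all tested genes were, and 0 lower, where 0.272% were. Timp1, a secreted inhibitor of metalloproteases, had relative log2 signals of 7.31 and 7.29 with PGE2 against 4.71 and 4.62 in control and rose by 2.63 ± 0.15 (adjusted p = 0.0438, limma). Timp3, the TIMP that inhibits ADAM17 and the aggrecanases best, had 7.22 and 7.02 with PGE2 against 7.17 and 7.46 in control (-0.19 ± 0.19, adjusted p = 0.650), with overlapping groups and kept probes from -0.19 to 0.36. Reck, a membrane-anchored inhibitor, had 2.26 and 3.11 with PGE2 against 3.89 and 4.50 in control (-1.51 ± 0.39, adjusted p = 0.188), and Timp2 stood at -0.22 ± 0.17 (adjusted p = 0.551), with a second kept probe at 0.31. Timp3 was added after its values were seen. The median log2 change of the 4 was -0.21.

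None of 12 tested partners of ADAM17 and ADAM10 and activating convertases was called (limma), with 0 higher and 1 lower at an unadjusted p under 0.05 and a median log2 change of -0.19. At that p stood 8.33% of this list and 17.8% of all tested genes. Tspan5, a tetraspanin that accompanies ADAM10, had relative log2 signals of 1.44 and 1.66 with PGE2 against 2.67 and 2.71 in control (-1.14 ± 0.17, adjusted p = 0.0893). The next smallest p belonged to Pcsk6, a proprotein convertase (-1.74 ± 0.82, adjusted p = 0.365), and Tspan15, another ADAM10 tetraspanin (-0.51 ± 0.28, adjusted p = 0.421). The kept probes of Tspan15 ranged from -0.51 to 0.28.

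None of 23 tested genes of shed membrane proteins was called (limma), with 3 higher and 2 lower at an unadjusted p under 0.05 and a median of 0.04. This p was met by 21.7% of the list and by 17.8% of all tested genes. The hyaluronan receptor gene Cd44 had relative log2 signals of 1.73 and 1.70 with PGE2 against 0.72 and 0.69 in control (1.01 ± 0.15, adjusted p = 0.0907). Vcam1, a leukocyte adhesion molecule, stood at -1.27 ± 0.23 (adjusted p = 0.120) and Tnfrsf1a, a TNF receptor that ADAM17 sheds, at 1.16 ± 0.22 (adjusted p = 0.126).

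Of 15 tested ADAMTS substrates 0 were called, with 1 higher and 3 lower at an unadjusted p under 0.05 and a median of -0.32. The share at that p was 26.7%, against 17.8% of all tested genes. The versican gene Vcan had relative log2 signals of 4.80 and 4.63 with PGE2 against -1.83 and 0.06 in control. The groups were far apart, and the control arrays differed from each other, at a change of 5.60 ± 0.68 (adjusted p = 0.0707, limma) and with kept probes from 4.76 to 6.04. Thrombospondin 1 (Thbs1) stood at -1.85 ± 0.25 (adjusted p = 0.0812) and the proteoglycan gene Dcn, for decorin, at -2.91 ± 0.46 (adjusted p = 0.101). Of 6 tested genes of thrombospondin-repeat glycosylation and ADAMTS-like kin, 0 were called and 1 was higher and 1 lower at an unadjusted p under 0.05. That is 33.3% of the 6, against 17.8% of all tested genes. The median of the 6 was -0.24. Thsd1 stood at 2.18 ± 0.34 (adjusted p = 0.0962), Sspo at -1.78 ± 0.29 (adjusted p = 0.103) and Thsd4, an ADAMTS-like gene outside the naming rule, at -0.38 ± 0.17 (adjusted p = 0.345). Thsd1 met the filter in PGE2 only and Sspo in control only, so part of a difference in them was built into the choice.

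**Figure D4:**
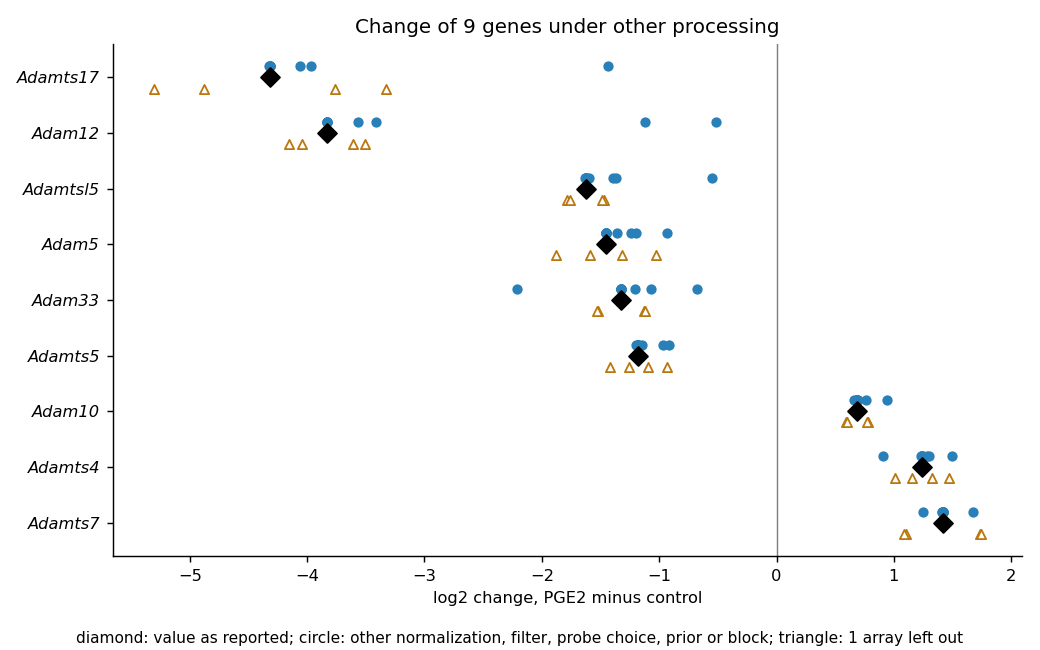
Log2 change with PGE2 relative to control (x axis) of the 9 members at an unadjusted p under 0.05, as reported (diamond), under other processing (circle) and with 1 array left out (triangle). No value of the 9 crosses 0, and Adam12 runs from -4.16 to -0.52. Adam12 and Adamts17 met the filter in control only.

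The 9 members at an unadjusted p under 0.05 kept their sign in every alternative that tested them, as did 17 of the 27 tested members. Adam12 and Adamts17 met the filter in control only, so a difference in them was built into the choice. Without the filter, Adam12 stood at -0.52 on its other probe, which was also the median difference of the dark member probes. Adamts17 stayed at -4.32 there, on the same probe. Adam10 ranged from 0.59 to 0.94, Adamts7 from 1.09 to 1.74, Adam33 from -2.21 to -0.68, Adam5 from -1.88 to -0.93, Adamtsl5 from -1.78 to -0.55 and Adamts17 from -5.30 to -1.43. None of these 6 passed an adjusted p of 0.05 in any alternative (limma).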

How the data were processed

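Per the file headers, the deposited scanner files hold a background-corrected intensity per spot from Agilent Feature Extraction 11.5.1.1 (protocol GE1_1105_Oct12, array design 074809). Version 12.0.3.1 is the one in the submitters' processing notes. The deposited scaled signal is that intensity multiplied by a constant for each array (1.07, 0.990, 0.964 and 0.945 for PGE2 1, PGE2 2, control 1 and control 2), so its scale and direction are known, and its column medians are 39.9, 40.5, 32.7 and 42.9. Its 4 columns of detection calls were not used. All arrays share 1 scan identifier, per the file headers.

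Control spots and spots with outlier flags were left out (158 probes had no other spot), and replicate spots averaged. Values are log2 intensity minus the array's 75th percentile. PGE2 was compared with control in limma 3.58.1 (R 4.3.3, data.table, version 1.17.8), through lmFit and eBayes, with Benjamini-Hochberg adjustment and a threshold of 0.05. All 57 members matched a RefSeq gene ID. Each member is named. Values on each array are given by rule for members called, those with separate groups and an absolute log2 change of at least 1, the 6 with the highest signal and 17 with a vascular role. Those of the remaining tested members, and of Timp3, were added after they were seen. Up to 3 genes of each pathway list with the smallest p are named. The members and lists were chosen with earlier results of these data known. In 20 simulations of the 17660 tested genes with 2 arrays a group, 200 genes were changed in each. Of the genes changed 2-fold limma called 0%, of those changed 4-fold 18.7% and of those changed 16-fold 80.6%. The simulated noise was independent between arrays, and neither the number of arrays nor the number of genes changed was varied. The share called under Benjamini-Hochberg adjustment depends on how many genes change, so these percentages hold for 200 changed genes. The alternatives are given in the closing section. The scanner files used here carry no mean signal, so normexp (offset 50) was run on the median signal.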

Additional observations from a re-analysis of the deposited data

How the results depend on the processing

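The 13 alternatives were other normalizations, filters, probe choices, a variance trend, a replicate block and each array left out. The 70 genes called higher became 0 on the authors' scale and without the filter on dim probes and 39 with a filter for all 4 arrays, and ranged from 0 to 98 with 1 array left out. The 48 called lower became 0, 0 and 15 in that order, 84 with the replicate block, and ranged from 0 to 76. On the authors' scale the median of all tested genes was 0.23 and that of the members -0.03. The 1 member called lower, Adam12, became 0 with normexp and quantile normalization, on the authors' scale, without the filter, with the filter for all 4 arrays (where its probe is not tested), with a variance trend and with the replicate block, and ranged from 0 to 2 with 1 array left out, the 0 being without either control array. Its adjusted p ranged from 0.0362 to 0.462 (limma). No member was called higher in any alternative. With the filter for all 4 arrays, 7 of 22 members had an unadjusted p under 0.05 (limma), as did 2887 of all 16015 tested genes. With the replicate block these were 14 of 27 members and 4340 of 17660 genes. Without the filter they were 9 of 57 members and 2685 of 37436 genes.

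Of 346 member values under alternatives, 19 in 10 genes reversed in sign. On the authors' scale Adam32 was 0.12 and Adam8 0.016, and with the mean of kept probes Adam11 was 0.31. With 1 array left out, the ranges were -1.38 to 0.41 for Adamts1, -0.45 to 2.21 for Adamtsl3, -0.059 to 0.10 for Adam15, -0.50 to 0.57 for Adam18, -0.61 to 0.080 for Adam1a, -0.49 to 0.21 for Adam32, -0.59 to 0.11 for Adam8, -0.10 to 0.39 for Adam9 and -2.14 to 0.76 for Adamts9. The cause of these changes was not tested. Same-numbered arrays deviated together (r = 0.424 across genes, 2 pairs), but the labels do not say that numbers mark shared cultures, so the paired fit stands here only: with the replicate block 4340 genes had an unadjusted p under 0.05, and 3152 without it. Signals near background limit Adam12, Adamts17 and Adamts18 to bounds, which hold on the main scale only. With normexp and quantile normalization their fitted changes were -1.12, -1.43 and -0.32, each smaller than its bound.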
